A study of Mus musculus with 2 samples.

Results

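The barcodes described here are melanoma-like droplets that were almost free of the nuclear RNA Malat1, carried few of a set of mitotic genes and had a low share of transcripts from 4 hypoxia genes. There were 276 of them among 4993 barcodes in the deposited matrices, 95 in the Cre plus library and 181 in the Cre minus library. Each passed at least 500 detected genes and under 10% mitochondrial UMIs, as did 3334 barcodes in all. A UMI is a molecular tag that counts an original RNA molecule. Each also had at least 5 UMIs of Dct, Pmel, Mlana and Tyrp1 together, at least 2 times the sum of each of 4 panels for lymphatic endothelium, blood endothelium, macrophages, and pericytes and fibroblasts. Malat1 made up under 0.1% of the UMIs, and fewer than 3 of the 6 cycling genes Mki67, Top2a, Cenpf, Birc5, Cdk1 and Ube2c were detected. These steps left 552 barcodes, and the members were chosen by these measured UMI counts as those at or below the joint median of the summed UMI share of Bnip3, Fam162a, Ero1l and Higd1a, which was 0.547%. The other 276 are called hypoxic below, and the name less hypoxic refers only to this split. Melanoma barcodes with at least 0.1% Malat1 that also had fewer than 3 of the cycling genes, 72 for Cre plus and 146 for Cre minus, are called Malat1-rich.

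The libraries come from skin tumors of B16F10-OVALBUMIN/VEGFC, a mouse melanoma line whose name gives ovalbumin and the lymphatic growth factor VEGFC as added genes. The tumors were collected 15 days after intradermal injection of 500K cells into Ifngr1iProx1 (Cre plus) mice or Ifngr1WT (Cre minus) mice, and 3 tumors of each genotype were pooled before cells that were DAPI-, CD31+ and CD45- were sorted for 10x 3′ sequencing. The labels do not spell out the alleles or the animals' age and sex. The melanoma cells of both libraries come from the same injected line, so the genotype is that of the host, and melanoma cells are not what the endothelial gate was set for. With 1 pooled library per genotype there is no replicate: no test is given, intervals cover counting error only, and genotype cannot be told apart from library, tumor pool or sort.

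Melanoma cells of this kind keep the pigment program of melanocytes, in which the transcription factor MITF drives genes for melanin enzymes and melanosome proteins. When oxygen is short, HIF transcription factors escape degradation and raise genes for glycolysis, blood vessel growth, pH control and mitochondrial turnover. BNIP3 sits on the outer mitochondrial membrane and promotes mitophagy, HIGD1A is a small mitochondrial protein, and ERO1L serves the formation of disulfide bonds in the endoplasmic reticulum. These statements are background and not results of these data.

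Promoter windows of 5 genes are shown as examples of the hypoxia, pigment and DNA replication groups described below. Each is the 250 bases before the annotated start, 5′ to 3′ on the gene's strand, from the RefSeq table of GRCm38.p6, which is the assembly behind mm10. Capitals mark every match, on either strand, of ACGTG (the core of the hypoxia response element) in Bnip3 and Hilpda, of CATGTG (a core bound by MITF) in Tyr and Dct, and of TTTNNCGC (an E2F-type motif) in Mcm6.

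Bnip3: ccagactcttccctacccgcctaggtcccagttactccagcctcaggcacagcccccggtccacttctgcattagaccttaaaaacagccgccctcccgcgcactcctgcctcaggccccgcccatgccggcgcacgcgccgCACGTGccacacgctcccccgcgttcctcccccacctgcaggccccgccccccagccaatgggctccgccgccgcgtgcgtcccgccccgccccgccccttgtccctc
Hilpda: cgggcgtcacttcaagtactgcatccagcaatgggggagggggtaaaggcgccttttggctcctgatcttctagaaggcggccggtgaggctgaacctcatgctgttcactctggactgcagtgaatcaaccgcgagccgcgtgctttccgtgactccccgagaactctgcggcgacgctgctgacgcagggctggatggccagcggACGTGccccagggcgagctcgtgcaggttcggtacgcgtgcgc
Tyr: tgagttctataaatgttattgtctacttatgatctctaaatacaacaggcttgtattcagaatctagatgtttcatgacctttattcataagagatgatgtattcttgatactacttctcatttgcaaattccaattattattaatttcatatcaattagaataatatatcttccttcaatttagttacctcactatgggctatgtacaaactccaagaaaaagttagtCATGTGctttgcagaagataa
Dct: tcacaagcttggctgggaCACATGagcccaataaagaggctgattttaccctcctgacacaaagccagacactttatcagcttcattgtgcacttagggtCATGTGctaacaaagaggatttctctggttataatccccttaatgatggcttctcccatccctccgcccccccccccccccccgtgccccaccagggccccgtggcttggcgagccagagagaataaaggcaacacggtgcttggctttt
Mcm6: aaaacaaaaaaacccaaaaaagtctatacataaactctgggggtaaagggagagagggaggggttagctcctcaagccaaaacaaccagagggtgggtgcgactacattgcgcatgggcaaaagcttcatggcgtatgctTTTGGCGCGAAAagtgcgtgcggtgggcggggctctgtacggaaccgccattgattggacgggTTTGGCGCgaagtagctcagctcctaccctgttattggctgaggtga

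Bnip3 (chr7:138909507-138909756, minus strand) held an ACGTG match on each strand that overlap, 108 and 107 bases before the start. Hilpda (chr6:29272376-29272625, plus strand) held 1 match, 43 bases before the start, in the window shown, which is 1 of its 2 windows. The Tyr window (chr7:87493513-87493762, minus strand) held CATGTG 21 bases before the start, and the Dct window (chr14:118052247-118052496, minus strand) held it at 232 and 150 bases. Mcm6 (chr1:128359706-128359955, minus strand) held 3 matches of TTTNNCGC, of which 2 overlap, the first ones at 110 and 106 bases. Over lists, ACGTG was in 3 of the 4 windows of the hypoxia genes used for the split and in 16 of 32 windows (50%) of the other listed hypoxia targets, against 16.6% of 32851 windows of all genes. CATGTG was in 9 of 23 windows (39.1%) of the pigment list, against 12.3% of all windows. TTTNNCGC was in 7 of 24 windows (29.2%) of the DNA replication list, against 4.28% of all windows. A match is a description of these letters and not a sign of binding.

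The members held 939127 UMIs in Cre plus versus 2139887 UMIs in Cre minus, of 66704257 and 76967583 UMIs in the whole libraries. Their depth ran from 1050 to 48311 UMIs with a median of 7353 in Cre plus, and from 1618 to 154613 with a median of 8910 in Cre minus. Hypoxic barcodes had medians of 9477 and 10519 UMIs, and Malat1-rich barcodes of 109004 and 109633. No Malat1 UMI at all was found in 76 of 95 members (80.0%) of Cre plus and 126 of 181 (69.6%) of Cre minus. A mitochondrial share under 0.1% was seen in 20 members (21.1%) of Cre plus and 28 (15.5%) of Cre minus, while the medians were 1.69% and 2.58%. No doublet caller was run. Of the cell barcodes, 1 occurred in both libraries and it was a member.

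After the values were seen, 10 members were set apart, 3 in Cre plus, as well as 7 in Cre minus. In 2 of them, 1 per library, haemoglobin made up 64.6% and 37.4% of UMIs, and these barcodes held 98.8% and 97.1% of the members' Hbb-bs UMIs. Another 6 held at least 5 UMIs of the panels of other cell types, up to 88 UMIs of the blood endothelial panel in a Cre minus barcode. The deepest Cre minus barcode alone gave 7.23% of that library's member UMIs. A Cre plus barcode of 48311 UMIs, 5.14% of its library's member UMIs, held 262 of the 286 Pde4d UMIs. Values without these 10 barcodes are given below as values without the set-apart barcodes.

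The label was checked first against 15 melanoma markers outside the rule. All 15 listed melanoma genes outside the rule were detected in both libraries, at a summed 4402 CPM (UMIs scaled to 1e6 per class and library) in Cre plus versus 5627 CPM in Cre minus members, against 859 and 1053 CPM in barcodes of the lymphatic panel, 258 and 230 CPM in those of the blood endothelial panel, 1128 and 1083 CPM in those of the pericyte and fibroblast panel and 1785 and 1891 CPM in those of the macrophage panel. Cd63, Gpnmb and Syngr1, of which Cd63 and Gpnmb are also known from macrophages, held 1325, 833 and 541 of the 4134 UMIs in Cre plus members and 3468, 2150 and 1518 of the 12041 UMIs in Cre minus members. Sox10, a transcription factor of neural crest and melanocytes, stood at 104 CPM in Cre plus versus 120 CPM in Cre minus members, against 1.15 and 4.03 CPM in lymphatic and 2.04 and 1.37 CPM in macrophage barcodes. Genes were also ranked by fold against the passing barcodes outside the melanoma classes, so other melanoma barcodes were not part of that comparison. Its 10 highest genes held Mlana and Pmel, which the rule used, and Trpm1, which it did not. The others were Cck, Ptgds, S100b and 4 glutathione transferase entries (Gsta4, Gsta2, Gsta1 and Gm3776). Of these, Gsta1 and Gm3776 are near-identical copies whose counts may be shared. The barcodes are called melanoma-like here, and the high pigment panel itself is set by the rule.

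Ptprc and Pecam1, the genes of the sorted antigens, were low. Ptprc, which encodes CD45, had 0 UMIs in all 276 members, and the exact 95% interval for the share of members with a UMI reached 3.81% for Cre plus and 2.02% for Cre minus. At these depths that limits barcodes with a UMI, not barcodes that express the gene. The floor of 3 counts stood at 3.19 CPM for Cre plus and lower for the deeper Cre minus members, against 708 and 836 CPM in macrophage barcodes. Pecam1, which encodes the sorted antigen CD31, had 10 UMIs in Cre plus versus 19 in Cre minus members, or 10.6 and 8.88 CPM, against 393 and 382 CPM in lymphatic barcodes and 1205 and 1364 CPM in blood endothelial barcodes. Cdh5, the endothelial cadherin, had 0 UMIs in Cre plus versus 19 UMIs in Cre minus. Egfl7 was not as low and held 49 of the 65 Cre plus and 133 of the 181 Cre minus UMIs of 5 listed endothelial genes. That list summed to 69.2 and 84.6 CPM, against 3296 and 2996 CPM in lymphatic barcodes, with a UMI in 35.8% and 34.8% of members. The 4 listed leukocyte genes had 1 UMI in Cre plus versus 20 in Cre minus members, of which Cd52 held 13. Most markers of the lymphatic, blood endothelial and macrophage lists are panel genes that the rule capped, so their low level in members was set by the selection and is given only as a description. The listed lymphatic markers summed to 43.7 and 43.0 CPM with 6 and 7 of 7 detected, and blood endothelial markers to 8.52 CPM (4 of 7) in Cre plus versus 72.9 CPM (7 of 7) in Cre minus. Of the 156 Cre minus UMIs behind the latter value, 88 panel UMIs lay in 1 set-apart barcode and 29 in another. A UMI of the blood endothelial list was found in 5.26% of Cre plus and 12.2% of Cre minus members. Macrophage markers summed to 598 and 824 CPM, of which Apoe, which melanoma cells also express, held 549 and 1702 UMIs, while C1qa and C1qb had 1 each in Cre plus versus 9 and 6 in Cre minus. All 5 T and NK cell markers and both keratinocyte markers were at 0. Cdkn2a, a gene that B16 lines are known to lack, had 0 UMIs in both libraries, against 21.2 and 30.7 CPM in lymphatic barcodes. The part of other cell types' RNA in the results below was not tested.

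**Figure D1:**
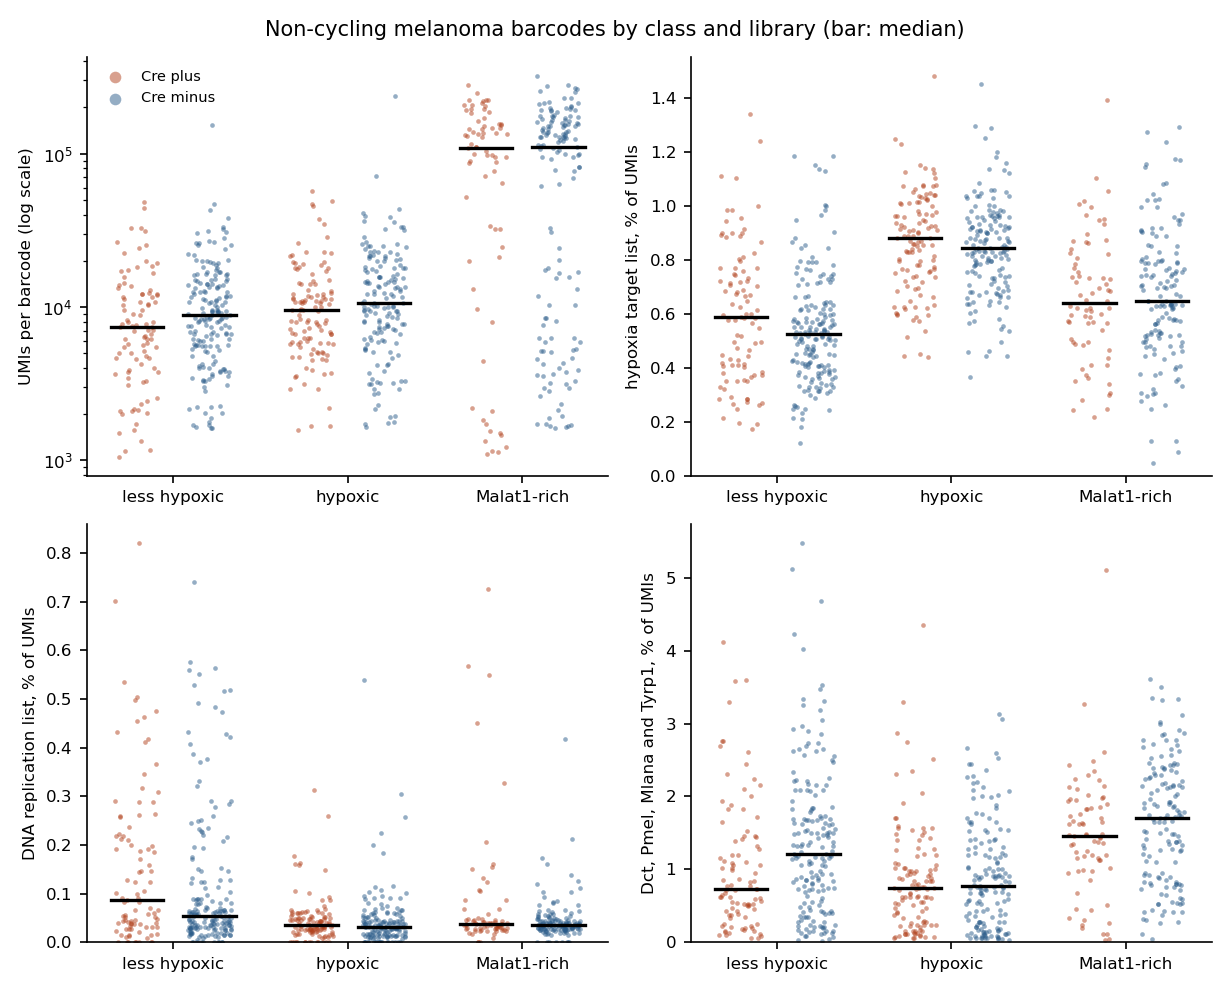
Depth (UMIs, log axis) and the share of UMIs from the hypoxia target list, the DNA replication list and the 4 pigment genes of the rule, for each of the 770 Malat1-poor and Malat1-rich melanoma barcodes with fewer than 3 cycling genes; points are barcodes, bars medians, and within each class Cre plus stands left of Cre minus. Less hypoxic barcodes reach replication shares of 0.820% and 0.741% with medians of 0.0874% and 0.0552%, above the hypoxic medians of 0.0358% and 0.0319%, and Malat1-rich barcodes are mostly far deeper.

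By construction the 4 hypoxia genes separated the classes, and their values are given as a description. Members had a median share of 0.280% in Cre plus versus 0.289% in Cre minus, against 0.759% and 0.720% in hypoxic barcodes, and Malat1-rich barcodes lay between at 0.610% and 0.569%. The 2 members nearest to the threshold had 0.547% and 0.542%, and the nearest hypoxic barcodes had 0.548% each, so the classes meet without a gap. Ero1l stood at 208 and 182 CPM in Cre plus and Cre minus members, against 927 and 813 CPM in hypoxic barcodes. Bnip3 stood at 441 and 524 CPM, against 1364 and 1463 CPM. Of the 4, Ero1l was the furthest apart, at log2 ratios of -2.16 in each library, followed by Bnip3 at -1.63 and -1.48.

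All other genes measured in this contrast share its barcodes with the rule, so they too are described and not tested. Of 4435 genes with at least 50 summed UMIs in Cre plus, 12.7% were over 1.5-fold higher and 9.85% over 1.5-fold lower in the less hypoxic than in the hypoxic barcodes; of 6570 in Cre minus the shares were 16.3% and 7.66%. In both libraries alike, 234 genes (5.28%) were higher and 191 (4.31%) lower of 4430 genes. Of all genes measured, 55.5% in Cre plus and 62.3% for Cre minus had a ratio above 0. The median over all genes was 0.06 in Cre plus versus 0.14 in Cre minus on the log2 scale.

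Hypoxia targets outside the rule were lower together. Of the 25 listed, 15 of 16 measured were lower in Cre plus, as were 16 of 19 in Cre minus, 11 and 12 of them by over 1.5-fold, with median log2 ratios of -0.99 and -0.89. Summed over the list the difference was smaller, 6227 and 5604 CPM in members, against 8538 and 8476 CPM in hypoxic barcodes, and Mif, a cytokine gene, held 4759 and 4182 CPM of the members' sums. Vegfa, the main growth factor for blood vessels, stood at 35.1 CPM in Cre plus versus 39.3 CPM in Cre minus members, against 91.9 and 142 CPM in hypoxic barcodes. Hilpda, a lipid droplet protein induced by HIF, stood at 73.5 and 59.3 CPM, against 222 and 286 CPM. For both genes, each library's members were below its hypoxic barcodes. Car9, a carbonic anhydrase of the cell surface, stood at 174 and 161 CPM, against 365 and 370 CPM. Slc2a1, the glucose transporter GLUT1, stood at 46.9 and 49.1 CPM, against 118 and 151 CPM. Mxi1, a repressor that antagonises MYC, stood at 29.8 and 36.0 CPM, against 120 and 130 CPM. P4ha1, a collagen prolyl hydroxylase, went the other way at 0.44 in Cre plus, while it stood at 0.07 in Cre minus.

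Glycolysis followed the same direction with smaller ratios. All 16 measured genes in Cre plus, as well as 15 of 16 in Cre minus were lower in the less hypoxic barcodes, 5 and 6 by over 1.5-fold, with medians of -0.45 and -0.49. Gpi1, which isomerises glucose 6-phosphate, stood at 1056 and 1093 CPM in members, against 1964 and 1908 CPM in hypoxic barcodes. Aldoc, an aldolase, stood at 126 and 130 CPM, against 285 and 290 CPM. Ldha, which makes lactate, differed less, at -0.33 and -0.41. Slc16a3, a lactate exporter, was the exception in Cre minus at 0.25, while it was at -1.21 in Cre plus. Eno3, an enolase outside the list and best known from muscle, was higher in members at 190 and 186 CPM, against 56.9 and 80.4 CPM.

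Genes of other functions lay among the lowest. Pgf, a placental growth factor that binds VEGF receptor 1, stood at 33.0 and 18.2 CPM in Cre plus and Cre minus members, against 254 and 135 CPM in hypoxic barcodes, log2 ratios of -2.95 [-3.53, -2.41] and -2.89 [-3.41, -2.41], where brackets give the 95% counting interval. Tnfrsf9, which encodes the co-stimulatory receptor 4-1BB, stood at 18.1 and 20.1 CPM, against 123 and 127 CPM. Selenbp1, a selenium-binding protein, stood at 121 and 85.5 CPM, against 591 and 537 CPM. Each of these was several fold lower in members in both libraries. Cdkn1a, which encodes the cyclin-dependent kinase inhibitor p21, stood at 92.6 and 117 CPM, against 328 and 360 CPM, and Cdkn1b (p27) stood at 118 and 98.1 CPM, against 209 and 196 CPM. The metallothioneins Mt1 and Mt2, which bind metal ions, had ratios of -1.14 and -0.95 and of -1.37 and -1.11. Isg20, an exonuclease also known as an interferon-induced gene, was at -1.81 and -2.07.

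**Figure D2:**
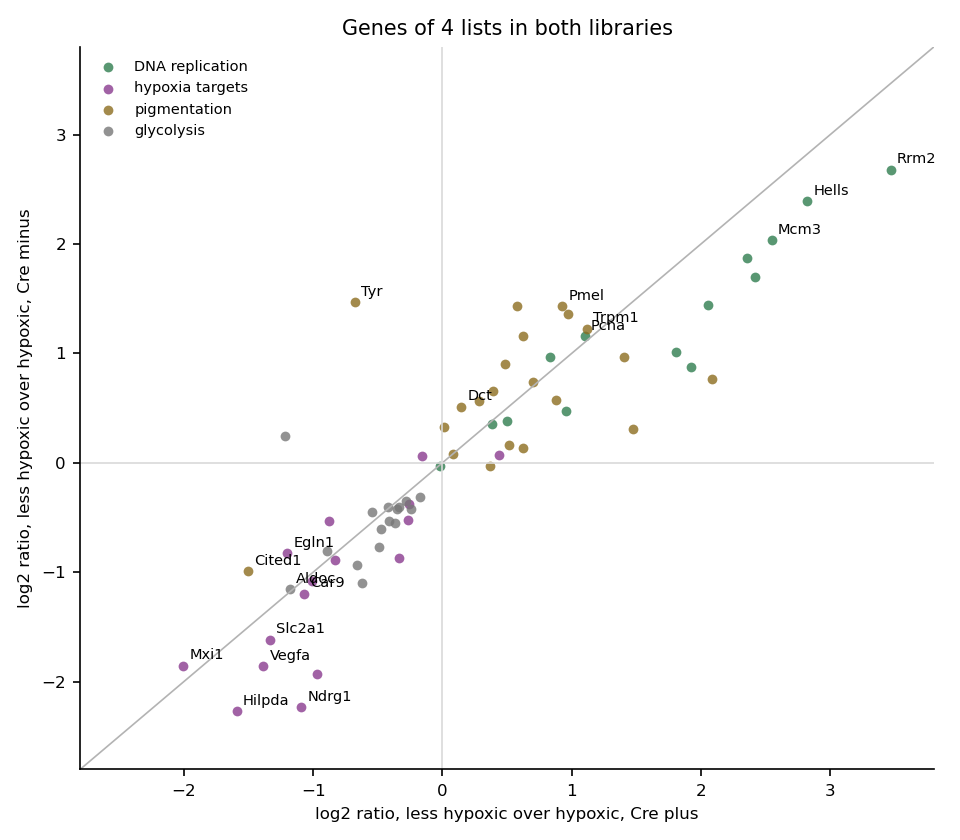
Log2 ratio of summed UMIs, less hypoxic over hypoxic, in Cre plus (x axis) and Cre minus (y axis) for each gene of the DNA replication, hypoxia target, pigmentation and glycolysis lists with at least 50 summed UMIs in each library; the diagonal marks equal ratios. Replication genes lie at upper right (Rrm2 at 3.47 and 2.68), hypoxia targets at lower left (Vegfa at -1.39 and -1.86), and Tyr lies apart at -0.68 and 1.47.

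Genes of DNA replication were higher in the less hypoxic barcodes. Of 26 listed, 13 of 14 measured in Cre plus, as well as 20 of 21 in Cre minus were higher, 11 and 17 of them by over 1.5-fold, with medians of 1.86 and 1.44. Rrm2, the small subunit of ribonucleotide reductase, stood at 113 CPM in Cre plus versus 65.4 CPM in Cre minus members, against 10.2 CPM in the hypoxic barcodes of either library. Mcm6, a subunit of the replicative helicase, stood at 52.2 and 46.7 CPM, against 10.2 and 12.8 CPM. Hells, a chromatin remodeller of dividing cells, stood at 67.1 and 49.1 CPM, against 9.48 and 9.36 CPM. Members were higher in both libraries for all 3 genes. Pcna, the sliding clamp, stood at 117 and 137 CPM, against 54.7 and 61.7 CPM. Ung, which removes uracil from DNA, was the only measured gene of the list that was lower in each library, by 0.02 and 0.03 on the log2 scale.

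These transcripts were unevenly spread over the members, as the plot of shares by barcode shows. The median share of the list was 0.0874% in Cre plus versus 0.0552% in Cre minus members, against 0.0358% and 0.0319% in hypoxic barcodes, whereas the upper quartiles were 0.220% and 0.127%, against 0.0518% and 0.0514%. After each barcode was thinned to 1000 UMIs, at least 3 replication UMIs were seen in 23 of 95 members (24.2%, exact interval 16.0 to 34.1) of Cre plus and 32 of 181 (17.7%, 12.4 to 24.0) of Cre minus. In hypoxic barcodes this share was 4 of 117 (3.42%) and 4 of 159 (2.52%), and in Malat1-rich barcodes 4 of 72 (5.56%) and 5 of 146 (3.42%). Without thinning the shares were 74.7% and 70.7% in members, against 65.0% and 59.7% in hypoxic barcodes. No barcode was too shallow for the thinning, which was done after the cap on cycling genes had set the classes at full depth. The rule capped 6 cycling genes but named no replication gene, and 51 members (53.7%) of Cre plus and 89 (49.2%) of Cre minus had none of the 6.

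Few mitosis genes reached 50 UMIs, which the cap on cycling genes bears on. Of 25 listed, 4 of 5 measured in Cre plus, as well as 4 of 6 in Cre minus were higher, with medians of 0.22 and 0.11, beside 55.5% and 62.3% of all genes above 0. The 6 cycling genes of the rule, summed, stood at 111 and 100.5 CPM in members, against 47.4 and 32.3 CPM in hypoxic barcodes, log2 ratios of 1.22 and 1.64. Ccnb2, which encodes cyclin B2, stood at 27.7 and 32.7 CPM in members, against 12.4 and 6.38 CPM in hypoxic barcodes. Stmn1, a regulator of microtubules, stood at 153 and 114 CPM, against 55.4 and 41.7 CPM. Lmnb1, which encodes lamin B1, stood at 44.7 and 36.5 CPM, against 6.56 and 4.25 CPM.

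Pigment genes were higher in the less hypoxic barcodes. Of 24 listed, 19 of 21 measured were higher in each library, beside 55.5% and 62.3% of all genes. By over 1.5-fold, 10 were higher in Cre plus and 11 in Cre minus, beside 12.7% and 16.3% of all genes. The medians were 0.58 and 0.66. The list includes genes of the rule's pigment panel, such as Dct and Tyrp1, on which both classes were chosen. Pmel, named below, is a panel gene too. Of the melanoma markers outside the rule, 11 of 12 in Cre plus, as well as 14 of 14 in Cre minus were higher, with medians of 0.52 and 0.84. Pmel, the fibril protein on which melanin is laid down, stood at 2291 and 3578 CPM in members, against 1207 and 1325 CPM in hypoxic barcodes. Trpm1, a cation channel gene that hosts a microRNA, stood at 461 and 606 CPM, against 213 and 259 CPM. Slc45a2, a melanosomal transporter, stood at 254 and 398 CPM, against 130 and 155 CPM. Dct, which encodes dopachrome tautomerase, differed less, at 5773 and 7912 CPM, against 5224 and 5543 CPM. Mitf stood at 165 and 289 CPM, against 120 and 178 CPM, while Sox10 differed by 0.07 and 0.02 on the log2 scale.

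Exceptions were few. Cited1, a transcriptional co-regulator of melanocytes, was lower at 292 and 403 CPM in members, against 828 and 803 CPM. Tyr, which encodes tyrosinase, the rate-limiting enzyme of melanin synthesis, was lower at 44.7 CPM, against 71.5 CPM, in Cre plus but higher at 130 CPM, against 47.2 CPM, in Cre minus. Without the set-apart barcodes the medians of the pigment list were 0.45 and 0.52. Mgll, which cleaves monoacylglycerol, followed the pigment genes at 1084 and 2269 CPM in members, against 375 and 707 CPM. Cck, the gene for the peptide hormone cholecystokinin, was higher at 100 and 628 CPM, against 24.8 and 106 CPM, but 67.0% and 66.1% of its member UMIs came from 1 barcode in each library.

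Endoplasmic reticulum chaperones and stress genes split within their list. Of 29 listed, 11 of 22 measured were higher in Cre plus, as were 15 of 26 in Cre minus. These counts lay near the 55.5% and 62.3% of all genes above 0. The medians were 0.08 and 0.30, beside 0.06 and 0.14 for all genes. Hspa5, the chaperone BiP, stood at 580 and 596 CPM in members, against 273 and 271 CPM in hypoxic barcodes, with 55.8% of its Cre plus UMIs in 1 barcode. Pdia6, a disulfide isomerase, stood at 399 and 270 CPM, against 149 and 130 CPM. Pdia4, another isomerase, stood at 208 and 135 CPM, against 51.8 and 68.5 CPM, and Dnajc3, a co-chaperone, at 129 and 164 CPM, against 62.0 and 58.3 CPM. Of the same list, Atf4, the main transcription factor of the integrated stress response, was at -0.81 and -0.86, and Trib3, an ATF4 target, was at -2.08 and -1.33. Immediate early genes were lower in 6 of 9 and 8 of 10, beside 55.5% and 62.3% of all genes above 0. Their medians were -0.41 and -1.16, and -0.76 and -1.41 without the set-apart barcodes. Junb, a subunit of AP-1, stood at 41.5 and 19.2 CPM, against 75.8 and 103 CPM.

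The mitochondrial genome gave a different picture in each library. Its 13 protein-coding genes had a median ratio of 0.07 in Cre plus, where 10 were higher, and of 0.96 in Cre minus, where all 13 were higher. The mitochondrial share is part of the rule's filter, and its median was 1.69% and 2.58% in members, against 1.28% and 1.34% in hypoxic barcodes. Nuclear genes of the respiratory chain, which encode its imported subunits, were higher in 53 and 60 of 70, but their medians of 0.15 and 0.17 lay near those of all genes. Citrate cycle genes, at 0.14 and 0.16, and cholesterol synthesis genes, at 0.27 and 0.23, also stayed within a small range.

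**Figure D3:**
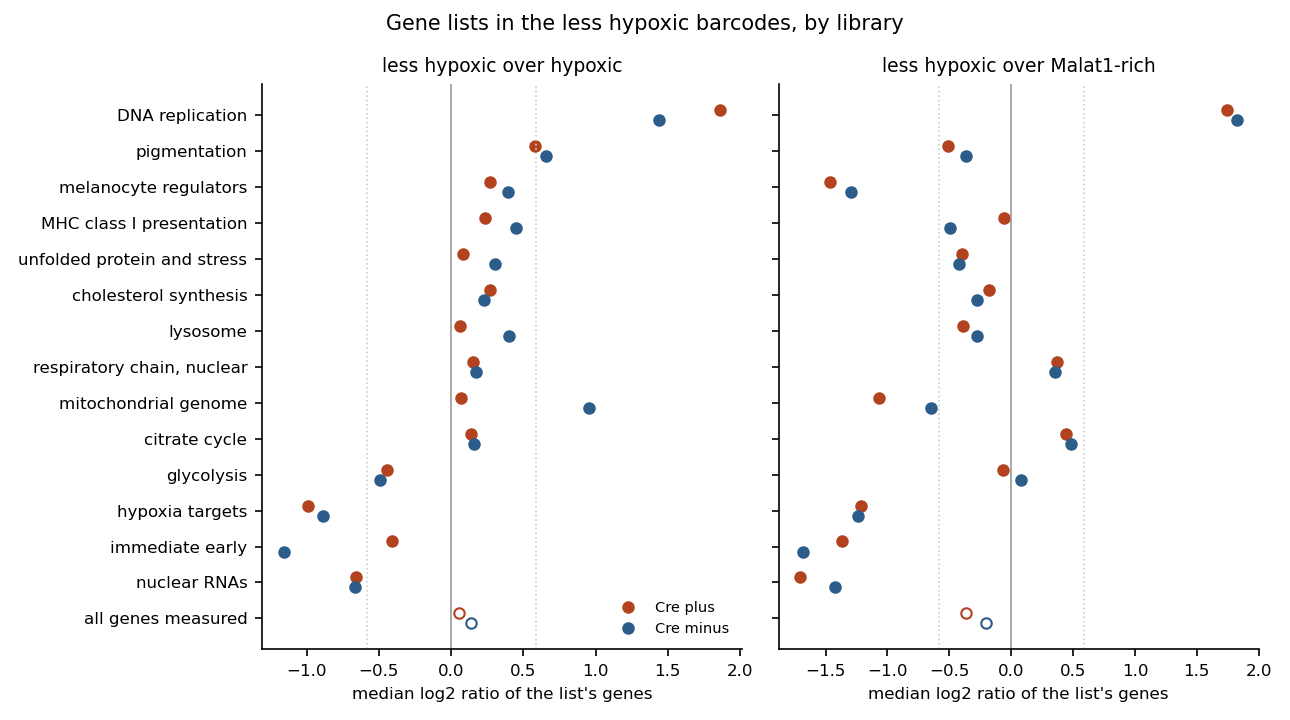
Median log2 ratio of each gene list in the less hypoxic barcodes over hypoxic (left) and over Malat1-rich barcodes (right), per library, with open points for all genes measured and dotted lines at 1.5-fold. DNA replication is at 1.86 and 1.44 on the left and 1.74 and 1.82 on the right, hypoxia targets are at -0.99 and -0.89 on the left and -1.22 and -1.24 on the right, and pigmentation is above 0 on the left and below 0 on the right.

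Malat1-rich melanoma barcodes of the same libraries give another comparison. It is again a description, since Malat1 chose them and the hypoxia share chose the members alone. Of 9273 genes in Cre plus, 9.63% were over 1.5-fold higher and 42% over 1.5-fold lower in members, and of 10368 in Cre minus the shares were 10% and 33.6%. The medians over all genes were -0.37 and -0.20, and 34.3% of all genes in Cre plus and 40.3% in Cre minus had a ratio above 0. Ratios and counts of genes here are read against those values. In both libraries alike, 444 genes (4.8%) were higher and 2604 (28.1%) lower.

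Replication genes were higher here too, 22 of 22 and 23 of 23, with 20 and 21 past 1.5-fold and medians of 1.74 and 1.82. The cap on detected cycling genes was applied at full depth, with medians of 109004 and 109633 UMIs in Malat1-rich barcodes. Members had 7353 and 8910 UMIs, so the cap was stricter for the deeper class. It set aside 145 and 228 Malat1-rich barcodes as cycling. The part of the cap in these ratios was not tested. Stmn1 stood at 153 and 114 CPM in members, against 35.2 and 26.8 CPM in Malat1-rich barcodes, and Cdk1, the mitotic kinase and a rule gene, at 40.5 and 35.0 CPM, against 8.56 and 7.94 CPM. Nuclear genes of the respiratory chain were higher in 64 and 66 of 70, with medians of 0.37 and 0.35, and the citrate cycle list had medians of 0.44 and 0.48. Hypoxia targets were lower in 18 of 20 and 21 of 23, with medians of -1.22 and -1.24. Summed, the list differed little, at 6227 and 5604 CPM in members, against 6638 and 6495 CPM in Malat1-rich barcodes, log2 ratios of -0.09 and -0.21. By barcode its median share was 0.590% and 0.526%, against 0.638% and 0.646%. Mif was higher in members, at 4759 and 4182 CPM, against 3241 and 3325 CPM. Vegfa stood at 35.1 and 39.3 CPM, against 310 and 291 CPM in Malat1-rich barcodes. Pigment genes had medians of -0.51 and -0.36, near those of all genes, so the direction of their difference is not set apart from the scale. Regulators of melanocyte identity were lower in 12 of 13 and 13 of 14, with medians of -1.46 and -1.29, beside 34.3% and 40.3% of all genes above 0.

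The ratios against Malat1-rich barcodes followed the length of the gene on the genome. For genes spanning up to 5 kb the median log2 ratio was 0.25 in each library, and for genes over 100 kb it was -1.34 in Cre plus versus -1.15 in Cre minus. Between 20 and 50 kb it was -0.39 and -0.21, and between 50 and 100 kb -0.90 and -0.64. The share of genes over 1.5-fold lower went along, 16.0% and 11.6% of genes up to 5 kb and 77.4% and 72.8% of genes over 100 kb. Pde10a, a phosphodiesterase gene, stood at 5.32 and 5.61 CPM in members, against 347 and 245 CPM, and Neat1, a nuclear RNA, at 2.13 and 5.14 CPM, against 280 and 145 CPM. The same bins showed medians between -0.02 and 0.17 against hypoxic barcodes. The sources used here do not say whether reads in introns were counted, and the part of gene length, intron reads, depth and Malat1 in these ratios was not tested.

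**Figure D4:**
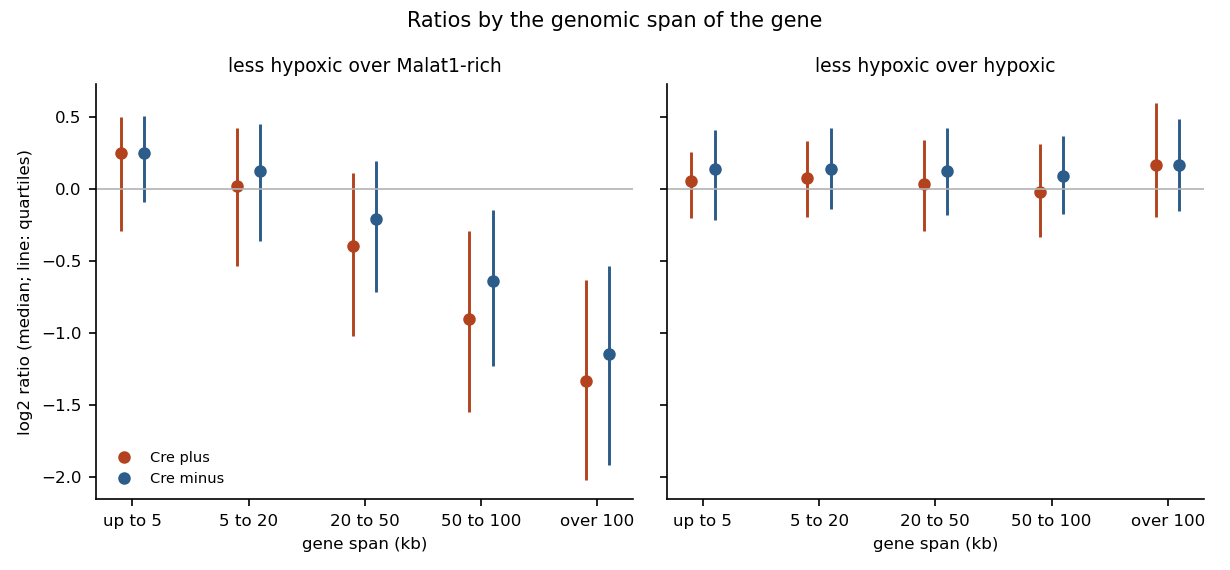
Log2 ratios by gene span in kb, less hypoxic over Malat1-rich barcodes (left) and over hypoxic barcodes (right); points are medians over genes, vertical lines the quartiles, Cre plus left of Cre minus. Medians on the left go down with span, to -1.34 and -1.15 over 100 kb, and on the right stay between -0.02 and 0.17.

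Between the libraries, the members were a smaller share of passing barcodes in Cre plus, 95 of 1782 (5.33%, exact 95% interval 4.33 to 6.48), than in Cre minus, 181 of 1552 (11.7%, 10.1 to 13.4). Lymphatic barcodes were 770 of 1782 (43.2%) in Cre plus versus 209 of 1552 (13.5%) in Cre minus, so the total held more endothelium in Cre plus. Within melanoma barcodes the member shares were 18.1% (14.9 to 21.7) in Cre plus versus 20.3% (17.7 to 23.1) in Cre minus, intervals that overlap. Of the Malat1-poor melanoma barcodes with fewer than 3 cycling genes, 44.8% (38.0 to 51.8) were members in Cre plus versus 53.2% (47.8 to 58.6) in Cre minus. A sort and a pool per genotype can set these shares.

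Within the members, 247 of 5588 genes (4.42%) were over 1.5-fold higher and 661 (11.8%) over 1.5-fold lower in Cre plus than in Cre minus, with a median over all genes of -0.07 and 40.6% of all genes above 0. Without the set-apart barcodes the counts were 163 and 613 of 5157 genes. In the hypoxic class the shares were 2.67% higher and 6.9% lower, and in Malat1-rich barcodes 4.68% higher and 1.9% lower.

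Of the 12 genes highest in Cre plus by the named rule, 7 had most of their Cre plus UMIs in 1 barcode. Ankfn1, at 150 CPM in Cre plus versus 29.0 CPM in Cre minus, had 81.6% of its Cre plus UMIs there, and its log2 ratio of 2.37 became -0.03 without the set-apart barcodes. Bnc2, Stox2, Chsy3, Sgip1, Ubn2 and Nktr did likewise, with 53.2% to 83.5% of Cre plus UMIs in 1 barcode and ratios between -0.39 and 0.14 without. The other 5 kept ratios above 0.7 without those barcodes. Ddit3, the stress factor CHOP, stood at 232 CPM in Cre plus versus 91.1 CPM in Cre minus, a log2 ratio of 1.35 [1.06, 1.64], with 36.7% of Cre plus UMIs in 1 barcode; it was 0.91 without the top barcode of each library, and -0.11 in the hypoxic class and 0.00 in Malat1-rich barcodes. Tmsb10, a thymosin that binds actin monomers, stood at 9010 and 5511 CPM, a ratio of 0.71 [0.67, 0.75], and was found in every member. Psmb8, a catalytic subunit of the immunoproteasome, stood at 230 and 123 CPM, a ratio of 0.90 [0.63, 1.16]. Ifrd1 had a ratio of 1.06 and Adssl1, a muscle-type adenylosuccinate synthase, of 1.19, which was 0.65 [-0.04, 1.33] without the top barcodes.

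Genes of antigen presentation were mostly higher in Cre plus. Of 21 listed genes of MHC class I presentation, 12 of 13 measured were higher in Cre plus, beside 40.6% of all genes, and 3 passed 1.5-fold, beside 4.42%. The list's median was 0.28 beside -0.07 for all genes. Without the set-apart barcodes the median was 0.42, and it was 0.38 in the hypoxic class and 0.09 in Malat1-rich barcodes. With a mitochondrial limit of 5% it was 0.038, and thinned to 1000 UMIs per barcode it was 0.51. At that depth 42.1% of Cre plus and 42.5% of Cre minus members had at least 3 UMIs of the list, so the share of barcodes did not follow the summed ratio. H2-D1, a class I heavy chain, stood at 303 CPM in Cre plus versus 173 CPM in Cre minus, a ratio of 0.81 [0.58, 1.04]. B2m, the class I light chain, stood at 884 and 740 CPM, a ratio of 0.26 [0.13, 0.38]. Psmb9, another immunoproteasome subunit, stood at 106 and 57.5 CPM, and Psmb10, the third such subunit, at 69.2 and 74.3 CPM. Only Psmb10 was below 0 among the 13, at -0.10 [-0.54, 0.32].

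Class II genes had few UMIs. Cd74, the invariant chain of MHC class II, stood at 235 CPM in Cre plus versus 54.7 CPM in Cre minus, a log2 ratio of 2.11 [1.78, 2.44] that was 1.83 without the top barcodes, and 1.54 in the hypoxic class and 1.04 in Malat1-rich barcodes. A Cd74 UMI was found in 33.7% of Cre plus and 16.6% of Cre minus members, against 5.45% and 15.8% of lymphatic and 89.8% and 79.2% of macrophage barcodes. Median depths were 7353 and 8910 UMIs in members and 15132 and 5773 UMIs in lymphatic barcodes. H2-Aa, a class II chain, stood at 54.3 and 31.3 CPM. Macrophage barcodes had Cd74 at 4763 and 4125 CPM. The macrophage genes Tyrobp and Lyz2 had 3 and 2 UMIs in Cre plus members and 7 and 21 UMIs in Cre minus members. Both are panel genes that the rule capped, so their low counts were set by the selection. The part of macrophage RNA in the Cd74 difference was not tested.

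In the interferon gamma axis, Ifngr1 and most listed GTPases were at low counts, while Ifngr2, the other receptor chain, was not. Ifngr2 had 56 UMIs (59.6 CPM) in Cre plus versus 130 UMIs (60.8 CPM) in Cre minus members. It stood at 26.3 and 32.7 CPM in hypoxic barcodes and at 47.9 and 50.6 CPM in Malat1-rich barcodes. Ifngr1, the receptor chain that the genotype names, had 4 UMIs (4.26 CPM) in Cre plus versus 10 UMIs (4.67 CPM) in Cre minus members, a log2 ratio of -0.13 [-2.26, 1.66], so no difference was detectable at this depth. Lymphatic barcodes had it at 29.0 CPM in Cre plus versus 47.4 CPM in Cre minus. A 3′ count does not show whether a deleted part of the gene was transcribed. Of 17 listed interferon-induced GTPases only Irgm1 reached 50 UMIs, at a ratio of -0.15, and the summed list stood at 104 CPM in Cre plus versus 134 CPM in Cre minus. Of 30 type I interferon genes, 7 of 12 measured were higher and 5 lower, beside 40.6% of all genes higher. Their median was 0.12, beside -0.07 for all genes. DNA replication genes were higher in Cre plus in 19 of 22, beside 40.6% of all genes. The median of that list was 0.23, and 0.22 without the set-apart barcodes. In it 2 genes passed 1.5-fold, beside 4.42% of all genes. These were Rrm2, at 113 and 65.4 CPM, and Chaf1b, a chromatin assembly subunit, at 41.5 and 23.4 CPM. The interval of Chaf1b reached -0.02 without the set-apart barcodes.

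**Figure D5:**
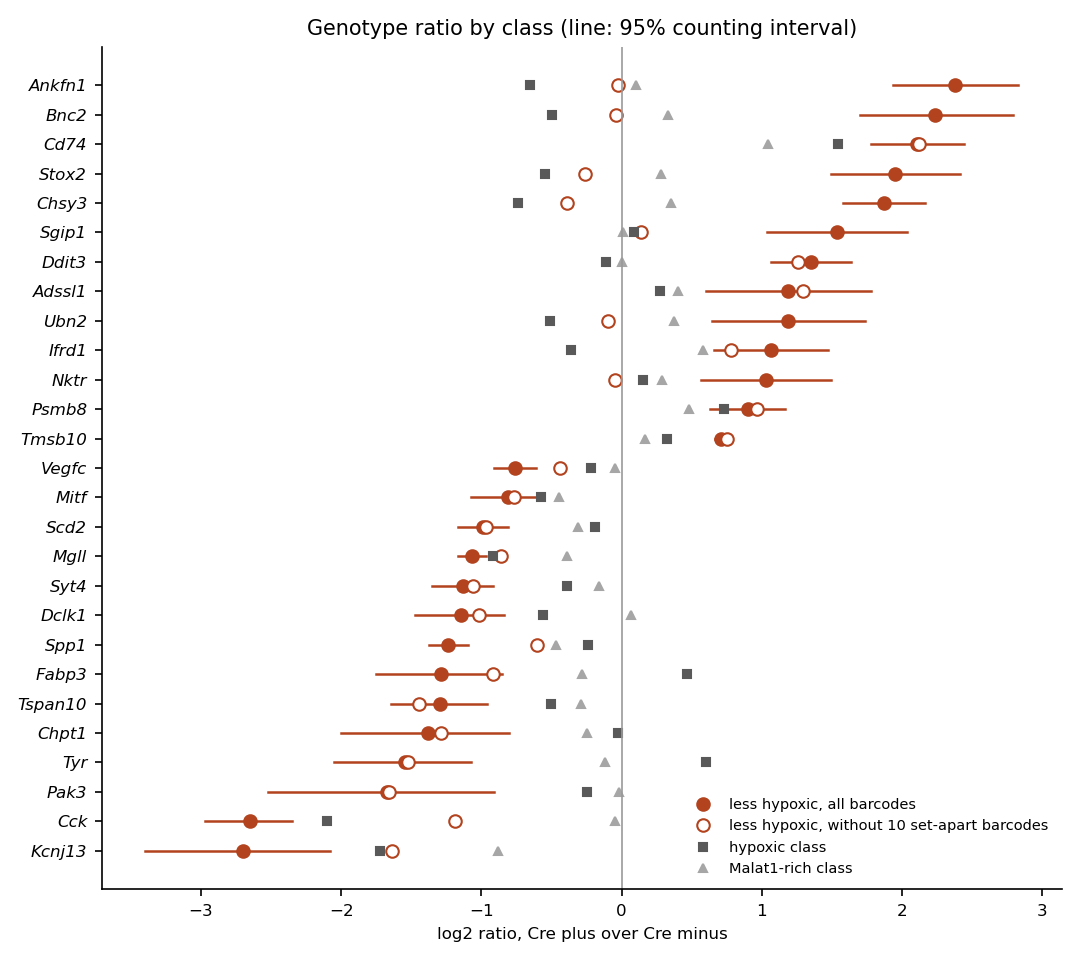
Log2 ratio of summed UMIs, Cre plus over Cre minus, for the 24 genes named by rule with Cd74, Mitf and Vegfc; filled circles with 95% counting intervals are all less hypoxic barcodes, open circles leave out the 10 set-apart barcodes, squares are hypoxic and triangles Malat1-rich barcodes. Ankfn1 moves from 2.37 to -0.03 when the set-apart barcodes are left out, while Cd74 stays at 2.12 and Tyr at -1.52.

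Pigment genes were lower in Cre plus members. Of 24 listed, 16 of 21 measured were lower and 5 higher, beside 40.6% of all genes higher, and 4 were lower by over 1.5-fold, beside 11.8%. The list's median was -0.41, which was -0.35 without the set-apart barcodes, -0.19 in the hypoxic class and -0.11 in Malat1-rich barcodes. Tyr stood at 44.7 CPM in Cre plus versus 130 CPM in Cre minus, a ratio of -1.54 [-2.05, -1.07], and was found in 27.4% of Cre plus and 49.7% of Cre minus members, against 1.56% and 2.87% of lymphatic barcodes. In the other classes its ratio was 0.60 (hypoxic) and -0.12 (Malat1-rich). Mitf stood at 165 and 289 CPM, a ratio of -0.81 [-1.07, -0.55], and at -0.58 and -0.45 in the other classes. Slc24a5, an ion exchanger of melanosomes, stood at 230 and 455 CPM, and Pmel at 2291 and 3578 CPM. All 4 of these were lower in Cre plus with and without the set-apart barcodes. Oca2, a melanosomal channel protein, stood at 99.0 and 72.9 CPM, but its ratio of 0.44 became -0.66 without those barcodes. By barcode, the 4 rule genes together had a median share of 0.737% in Cre plus versus 1.21% in Cre minus members, against 0.739% and 0.767% in hypoxic barcodes.

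Other genes lower in Cre plus were spread over more barcodes in part. Tspan10, a tetraspanin, stood at 90.5 CPM in Cre plus versus 222 CPM in Cre minus, at -1.30 with and -1.45 without the set-apart barcodes. Mgll stood at 1084 and 2269 CPM, Scd2, a fatty acid desaturase, at 332 and 658 CPM, and Syt4, a synaptotagmin, at 225 and 492 CPM. Spp1, the secreted phosphoprotein osteopontin, stood at 535 and 1258 CPM, with 40.0% of Cre minus UMIs in 1 barcode, and its ratio of -1.23 became -0.61 without the set-apart barcodes. For Cck and Kcnj13, a potassium channel gene, 66.1% and 56.7% of Cre minus UMIs came from 1 barcode, and ratios of -2.65 and -2.70 became -1.19 and -1.63. Fabp4 and Ctla2a, genes of endothelium that fall outside the naming rule and were chosen after their values were seen, had 81.9% and 68.1% of Cre minus UMIs in 1 barcode.

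Cholesterol synthesis genes were lower in Cre plus in 20 of 22 measured of 23 listed and higher in 2, beside 40.6% of all genes higher. Of these 5 were lower by over 1.5-fold, beside 11.8% of all genes, with a median of -0.34, and of -0.56 in the hypoxic class and -0.36 in Malat1-rich barcodes. Sqle, squalene epoxidase, stood at 56.4 CPM in Cre plus versus 124 CPM in Cre minus, and Hmgcs1, which makes HMG-CoA, at 114 and 174 CPM. Idi1, an isomerase of the same pathway, stood at 142 and 194 CPM. The 13 mitochondrial genes were all lower in Cre plus members, with a median of -0.51, while their median was 0.42 in the hypoxic class, where all 13 were higher, and -0.13 in Malat1-rich barcodes. The difference between classes was not tested, and the mitochondrial share itself was filtered. Hypoxia targets had a median of 0.09 and glycolysis of 0.00 between the libraries, and without the set-apart barcodes of -0.04 and 0.03. Ndrg1, a HIF target, was an exception at 66.0 CPM in Cre plus versus 25.7 CPM in Cre minus.

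Vegfc, the gene added to the line, stood at 476 CPM in Cre plus versus 806 CPM in Cre minus members, a log2 ratio of -0.76 [-0.91, -0.61] that was -0.44 [-0.60, -0.28] without the set-apart barcodes. Thinned to 1000 UMIs, 18.9% of Cre plus and 38.7% of Cre minus members had a Vegfc UMI. Hypoxic barcodes had 559 and 651 CPM, Malat1-rich barcodes 1886 and 1952 CPM, and lymphatic barcodes 2.84 and 6.05 CPM. Counts do not separate the added gene from the native one.

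Among the members themselves, without the set-apart barcodes, the hypoxia share still varied, and it went with glycolysis at a Spearman rank correlation of 0.65 over 92 Cre plus and 0.61 over 174 Cre minus barcodes. With the replication share it stood at -0.25 and -0.28, and with the pigment share at -0.11 and -0.02. The pigment share went with the MHC class I share at 0.68 in each library and with the endoplasmic reticulum and stress list at 0.67 and 0.57. It also went with the mitochondrial share, at 0.45 and 0.44. Barcodes of 1 library share depth limits, and shares of 1 total are tied to each other, so these values are descriptions.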

How the data were processed

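RNA counts of 2 single-cell libraries were used. The deposited matrices hold whole-number UMI counts per gene and barcode; Cell Ranger 7.0.0 and mm10 are named in the submitters' processing notes, and the sources used here do not say whether introns were counted. From the deposited counts of 32285 genes, barcodes were classed by the panel rule in the opening, and UMIs were summed per class and library. Ratios are of CPM, for genes with at least 50 summed UMIs, with 95% exact conditional binomial intervals; shares have exact Clopper-Pearson intervals. A 0 is given with a floor of 3 counts. All intervals and floors cover counting error only. "Fewer than 3" cycling genes was read as genes detected. No doublet caller was run and mixed barcodes stayed in. Thinning drew 1000 UMIs per barcode (seed 7). The members and all lists were chosen with earlier results of these data known.

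Named genes are those of the rule, the markers, up to 4 of each list described, the 12 highest and 12 lowest for genotype and the 10 highest and 10 lowest for each class comparison by the interval bound nearest to 0 (at least 100 summed UMIs, a UMI in at least 5% of members), and the 15 of highest level, without mitochondrial, ribosomal-protein and haemoglobin genes and genes under 10% of their level in another cell type. The scripts were tested on simulated data. Python 3.11.15, numpy 2.4.6, scipy 1.17.1 and pandas 2.3.3 were used, and 0 sample columns were left unused.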

Additional observations from a re-analysis of the deposited data

Results flagged for a closer look

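The mitochondrial limit alone kept out 31 Cre plus barcodes and 85 Cre minus barcodes that met every other step of the rule. Their median depth was 5327 UMIs for Cre plus and 6891 UMIs for Cre minus. Haemoglobin made up 144 CPM of the Cre plus and 16505 CPM of the Cre minus barcodes. They are listed because they lie outside the data that the comparisons use. Their pigment genes are set by the rule, and their replication and hypoxia target lists were not analysed here.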

How the results depend on the processing

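A change of direction could be called only for medians past 1.5-fold. These were the hypoxia target medians, on which the hypoxia split of the rule bears, and they kept their direction. For shares, gene counts and the smaller medians no such call was possible. The MHC class I median (0.28) was 0.038 under 5% and 0.37 under 20% mitochondrial UMIs, 0.18 with Malat1 under 0.2%, 0.42 with fewer than 3 cycling UMIs, 0.39 with no UMI of another panel, 0.51 thinned to 1000 UMIs, 0.35 with at least 200 summed UMIs, 0.41 without the deepest barcode and 0.42 without all set-apart barcodes. The hypoxia target median in Cre plus (-0.99) was -1.07 under 5% mitochondrial UMIs and -1.11 with Malat1 under 0.2%. In Cre minus (-0.89) it was -0.94 under 5% and -0.95 under 20% mitochondrial UMIs, -0.93 with Malat1 under 0.05%, -1.05 with Malat1 under 0.2%, -0.98 with fewer than 3 cycling UMIs, -1.20 with each library's own hypoxia median, -0.95 with at least 10 pigment panel UMIs, -0.98 with no UMI of another panel and -0.94 without the deepest barcode. With no UMI of another panel the member shares were 4.10% and 7.67%, and 538 genes, against 3048, were apart from Malat1-rich barcodes in both libraries. Genes over 1.5-fold higher and lower in Cre plus numbered 40 and 80 thinned to 1000 UMIs, 686 and 1356 with at least 20 summed UMIs and 25 and 116 with at least 200, and 163 were higher without all set-apart barcodes, a choice made after seeing the data. The median of the interferon-induced GTPases, a single measured gene in the reported setting, ran from -0.53 to 0.01. The cause of these shifts was not tested, except that thinning and the UMI minimums change how many genes are measured. No paired analysis was possible because each genotype has 1 library. Depth limits genes of few UMIs, such as Ifngr1.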
